A study of Mus musculus with 768 samples.

Results

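The cells described here are 228 single Schwann cells (SCs) of early postnatal mouse nerve that were not cycling and carried almost no Ncmap, the transcript of a small membrane protein of the myelin sheath. They were chosen by 3 values of each well. A well needed at least 1500 detected genes (1 read or more), a position outside the plate corners, and Ncmap below 10 CPM (reads of the gene per 1000000 reads of the well). Wells with at least 5 reads in each of 3 or more of the 10 genes Mki67, Top2a, Cdk1, Birc5, Ccnb1, Ccna2, Aurkb, Ube2c, Tpx2 and Cenpf were set aside as cycling. Of 768 wells, 655 were retained outside the corners. These held 228 Ncmap-negative non-cycling wells, 370 other non-cycling wells and 57 cycling wells.

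All cells came from sciatic nerves at postnatal day 5, from untreated P0Cre:ReYFP:βAct-DsRed mice on a C57bl/6J background. In these animals Cre, driven by the promoter of a Schwann cell myelin gene, switches on eYFP in the SC lineage, while DsRed is made in all cells. Each well of 2 plates (384 wells each) received a single eYFP-positive cell, whose RNA was sequenced by Smart-Seq2, which covers whole transcripts and has no molecular identifiers. Each plate held cells pooled from a male and a female and is 1 biological replicate, so every test had n = 2 plates. The sort selects the labelled lineage as a whole and not a stage within it, and the reporters were not among the genes measured.

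SCs pass from an immature stage, in which they divide and still carry adhesion molecules such as NCAM1 and L1 and the neurotrophin receptor p75 (Ngfr), to either of 2 fates. A cell that takes a large axon for itself becomes a pro-myelinating cell, in which transcription factors such as Oct6 (Pou3f1) and Krox20 (Egr2) act, and then a myelinating cell with a high output of myelin proteins and cholesterol. A cell that keeps several small axons becomes a non-myelinating (Remak) cell and retains many of the early adhesion molecules. Both kinds of sorting are under way in the nerve of the first postnatal week.

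The Ncmap-negative wells made up 32.6% of the retained wells in plate 1 (106 of 325, 95% exact interval 27.5 to 38.0) and 37.0% in plate 2 (122 of 330, 31.7 to 42.4). The mean was 34.8% ± 3.08 (SD, n = 2 plates), and the intervals of the plates overlapped. These and all later intervals are on counts of wells and cover counting error only, not the spread between the 2 pools of animals. The wells were shallower than the wells they are compared with. Their median was 476354 reads and 2925 genes in plate 1 and 418999 reads and 3189 genes in plate 2, against 690545 reads and 3523 genes, and 656529 reads and 3883 genes, in the other non-cycling wells. Plate columns 8 and 16 stood apart, with 26 of 64 wells under the gene minimum against 83 of 704 elsewhere. They held 12 of the 228 wells, and without them the share was 35.0%. No doublet caller was run.

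Few wells lay near the Ncmap limit. Of the 228 wells, 174 had no Ncmap read and 9 lay between 5 and 10 CPM, the highest at 7.92 CPM. Among the other non-cycling wells the lowest was at 11.4 CPM, 5 were under 50 CPM and the median was 3353 CPM. The 5 wells nearest below the limit had 158 to 793 CPM of Ncam1, while the 5 nearest above it, all of plate 1, ranged from no read to 5977 CPM. All 57 cycling wells were also below 10 CPM. On the cell cycle side, 153 of the 228 wells had none of the 10 genes at 5 reads, 60 had 1 and 15 had 2, while 4 cycling wells had exactly 3. The plot of Ncmap against Pmp22, a major myelin protein, shows both myelin transcripts well by well.

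**Figure D1:**
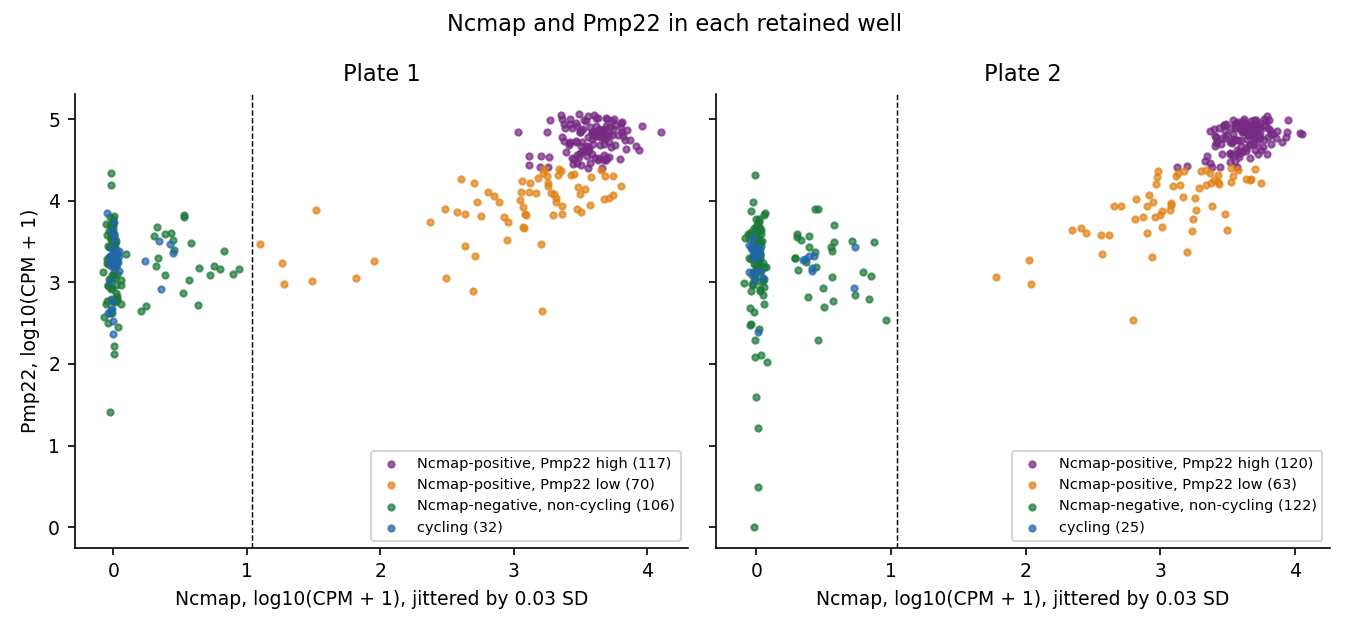
Ncmap (x axis) and Pmp22 (y axis) in each retained well, both as log10(CPM + 1), with 1 panel a plate; each point is 1 well, colours give the groups, numbers in brackets the wells, and the dashed line the limit of 10 CPM. The Ncmap-negative non-cycling wells lie left of the line together with the cycling wells, and few wells lie between 10 and 500 CPM (26 over both plates).

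Markers of immature SCs were then read in the 228 wells. The selection of wells used none of them, but the markers were chosen with earlier results of these data known. Higher shares of these markers in the 228 wells are therefore not an independent check of the selection. Ncam1, a cell adhesion molecule (chr9:49502136-49798925, GRCm38), had at least 1 read in 93.4% of the wells of plate 1 and 94.3% of plate 2. In the other non-cycling wells this held for 35.8% and 35.5%. Entpd2, an ectonucleotidase (chr2:25395874-25401321), had reads in 69.8% and 77.0% of the wells, against 10.7% and 19.1%. Most of the wells thus carried both transcripts, in both plates.

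Abca8a, a lipid transporter of the ABC family, was read in 63.2% and 66.4% of the wells, against 21.9% and 21.3% of the others. Ngfr was read in 48.1% and 44.3%, against 2.14% and 4.92%, so the classical p75 transcript was found in fewer than 50% of the wells. L1cam, the other early adhesion molecule, was read in 27.4% and 25.4%, against 2.67% and 2.19%. Sox2, a transcription factor that restrains myelination, stood at 17% and 21.3%, against 13.9% and 12.6% of the other wells.

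The order of the 6 markers was the same at equal depth. With each well thinned to 50000 reads (4 of the 228 wells and 5 of the others were shallower and left out), Ngfr was found in 37.5% and 29.2% of the wells against 1.65% and 1.64%, and Ncam1 in 88.5% and 90.8% against 17% and 20.2%. For Sox2 the thinned shares were 13.5% and 17.5% against 10.4% and 10.4%. Of the 6 markers, a well most often held 3 or 4. No marker was found in 3 wells of plate 1 and 1 well of plate 2, and all 6 in 1 and 3 wells. Ncam1, Entpd2 and Abca8a were thus found in most of these wells, Ngfr and L1cam in fewer than 50%, and Sox2 was found least often of the 6. The label immature fits the markers only in part, and the wells are called here by their rule, Ncmap-negative.

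**Figure D2:**
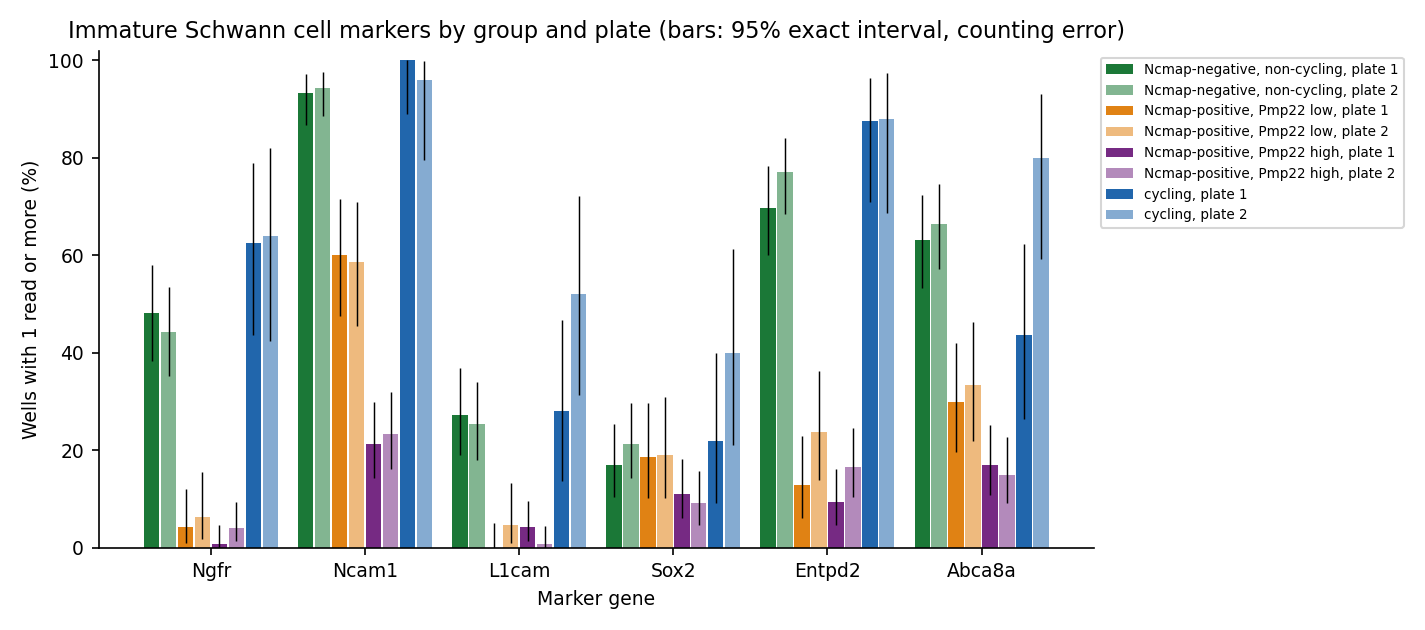
Share of wells with 1 read or more (y axis, percent) of the 6 markers (x axis), by group (colour) and plate (dark: plate 1, pale: plate 2); bars carry the 95% exact interval, for counting error only. The Ncmap-negative wells reach 93.4% and 94.3% for Ncam1 and stay at 17% and 21.3% for Sox2.

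For tests, reads were summed per plate and group, and the sums of the Ncmap-negative, other non-cycling and cycling wells were fitted together. Against the other non-cycling wells, 239 genes of 13734 were higher (1.74%) and 215 lower (1.57%) at an adjusted p under 0.05 (edgeR's quasi-likelihood test with Benjamini-Hochberg adjustment). Log2 changes below are from this fit and are relative to the median gene, whose change was -0.01. Each SE is the size of the log2 change divided by the square root of the test's F statistic. It is not a spread measured between the plates. CPM values are those of the sums and, unlike the log2 changes, are not corrected for the share of reads that a few very abundant myelin transcripts take in the other wells.

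Of the 6 markers, 2 passed. Ncam1 stood at 516 and 473 CPM in the 2 plates against 32.2 and 20.8 CPM, higher by 3.90 on the log2 scale (SE 0.29, adjusted p 0.00127). Entpd2 stood at 620 and 856 CPM against 4.31 and 24.3 CPM (log2 change 5.38, SE 0.79, adjusted p 0.0161). Its reads cannot be told apart from those of the overlapping gene Npdc1, as the protocol does not mark the strand. For both markers the sums of the groups did not overlap. How many of all genes tested did the same was not counted, so this adds no support.

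Abca8a (269 and 226 CPM against 15.6 and 13.4) had a log2 change of 3.77 (SE 0.83) that missed the threshold at an adjusted p of 0.0691. Ngfr stood at 77.2 and 55.1 CPM against 0.502 and 14.2 CPM, a log2 change of 2.86 (SE 1.24, adjusted p 0.377). A single well of the other non-cycling wells of plate 2 held 90.6% of the Ngfr reads of that sum. Ngfr passed where every well weighed the same (limma, adjusted p 0.00843), after thinning (adjusted p 0.00318) and when wells with 1 read in 2 of the 10 cell cycle genes already counted as cycling (adjusted p 4.12e-04). L1cam (35.8 and 47.2 CPM against 0.248 and 3.57) and Sox2 (21.1 and 22.6 against 4.81 and 9.23) did not pass, at adjusted p of 0.158 and 0.497. L1cam passed in 5 of its 13 alternatives and Sox2 in none.

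Of 10 transcription regulators known from immature cells, 9 were tested and 3 were higher, with a median log2 change of 1.29. Egr1, an immediate-early factor, stood at 750 and 812 CPM against 149 and 138 (log2 change 2.12, SE 0.15, adjusted p 0.00123). Jun, which opposes myelination, was at 868 and 1234 CPM against 242 and 145 (2.11, SE 0.35, adjusted p 0.0251). Id2, an inhibitor of helix-loop-helix factors, was higher by 1.20 (SE 0.16, adjusted p 0.0109). Jun and Id2 lost the threshold with the Ncmap limit at 1 CPM (adjusted p 0.0697 and 0.0559). That limit left 84 and 94 Ncmap-negative wells. It moved the wells of 1 to 10 CPM into the other non-cycling wells, so both groups changed. Notch1, the receptor that keeps cells immature, did not pass (log2 change 0.76, SE 0.24, adjusted p 0.21).

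None of the 9 genes of the SC lineage list passed in either direction. Sox10, the factor that specifies SCs, stood at 263 and 311 CPM against 208 and 204 (log2 change 0.16, adjusted p 0.877). Levels of Sox10 in the 2 groups lay close to each other, but this did not hold for the whole list. S100b stood at 289 and 139 CPM against 397 and 461 (-1.33, SE 0.41, adjusted p 0.2). Dhh stood at 219 and 207 CPM against 289 and 295 (-0.77, SE 0.18, adjusted p 0.0864). Of the 9 genes, 6 had positive and 3 negative changes.

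Genes of myelin were lower together. The wells were chosen by Ncmap, itself a transcript of the myelin sheath, so this direction is not independent of the choice. Of 13 tested, 12 were lower and none higher, with a median log2 change of -3.29. The exception, Fa2h, which makes hydroxylated sphingolipids, had a log2 change of -3.29 and an adjusted p of 0.109. Mbp, myelin basic protein, had reads in every one of the 228 wells and stood at 4705 and 4724 CPM against 44448 and 43557 (log2 change -3.54, SE 0.11, adjusted p 5.21e-05). Pmp22 stood at 2233 and 2665 CPM against 49632 and 49209 (-4.66, SE 0.14, adjusted p 5.21e-05). In single wells the median of Pmp22 was 1756 CPM in plate 1 and 1978 CPM in plate 2.

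Mal and Cnp, a proteolipid and an enzyme of the sheath, differed less. Mal had a change of -1.84 (SE 0.14, adjusted p 0.00138) and Cnp one of -1.31 (SE 0.20, adjusted p 0.0204). Pmp2, a fatty acid carrier of peripheral myelin (chr3:10179851-10183929), had the largest decrease of the genes named in this comparison, at 24.3 and 27.5 CPM against 2366 and 2641 (-6.92, SE 0.26, adjusted p 8.43e-05). It was read in 20.8% and 28.7% of the wells against 79.1% and 83.1%, and it overlaps Gm37389.

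Cholesterol synthesis followed the same direction. Of 21 genes, 15 were lower and none higher, with a median log2 change of -2.53. Fdps, farnesyl diphosphate synthase, stood at 275 and 350 CPM against 2169 and 2272 (-3.15, SE 0.17, adjusted p 3.95e-04). Fdft1 was lower by -3.31 (SE 0.36, adjusted p 0.00488) and Msmo1 by -2.37 (SE 0.23, adjusted p 0.00294). Of 14 glycolysis genes none passed, and 13 of them had negative changes.

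Further named genes with large decreases had no place in these lists. The amino acid transporter Slc36a2 stood at 66.5 and 36.2 CPM against 1045 and 934 (-4.59, SE 0.33, adjusted p 0.00123). Cntf, the ciliary neurotrophic factor of mature SCs, stood at 4.06 and 10.8 CPM against 159 and 207 (-4.94, SE 0.68, adjusted p 0.0122), and it overlaps Zfp91. Sncg, gamma-synuclein, was lower by -4.12 (adjusted p 0.0211) and Ppp1r16b, a phosphatase subunit, by -3.99 (adjusted p 0.0107).

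Some of the named genes overlap a neighbour, H2-DMa (-4.26, adjusted p 0.00294) with Brd2 and Tmem189 (-4.05, adjusted p 0.00134) with Cebpb and Gm20431. Fam178b (27.8 and 3.29 CPM against 427 and 469) changed by -5.17 (SE 1.00, adjusted p 0.044), which did not hold with the plate as a block (adjusted p 0.0622). Cdkn1a, the CDK inhibitor p21, stood at 224 and 184 CPM against 2356 and 2169 (-3.80, SE 0.36, adjusted p 0.00294).

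Of the 10 largest increases, 5 had their reads in many of the wells. Pdlim4, an actin-associated adaptor, stood at 165 and 143 CPM against 0.427 and 2.10 (log2 change 6.62, SE 0.77, adjusted p 0.00625). It was read in 41.5% and 41.0% of the wells against 6.95% and 6.56%. Col11a1, a fibrillar collagen chain, stood at 63.3 and 67.4 CPM against 1.36 and 0.644 (5.69, SE 0.52, adjusted p 0.00275). The interferon-inducible membrane protein gene Ifitm3 was higher by 5.43 (SE 0.51, adjusted p 0.00294), and the solute carrier Slc43a3 by 5.36 (SE 0.51, adjusted p 0.00294), with reads of Slc43a3 in 46.2% and 56.6% of the wells. Entpd2, described above, is the fifth.

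The other 5, Nuf2, Neil3, Sapcd2, Pbk and Ccnb2, are genes of dividing cells. They met the naming rule's minimum of 50 CPM, a mean over all 6 sums, only through the cycling wells, which are outside this comparison. The same holds for Col11a1 above. Nuf2 reads came from 1 of the 228 wells in each plate (80 and 317 reads), and the other non-cycling wells held 1 read a plate. Neil3 came from 2 wells of plate 1 and 1 of plate 2, with 99.3% and 100% of the reads in 1 well. A single well likewise held 99.5% of the Sapcd2 reads of plate 1 and 88.6% of the Pbk reads of plate 2. Ccnb2 was the most widespread, in 13.2% and 7.38% of the wells against 8.02% and 6.01%, at 34.5 and 23.5 CPM against 0.248 and 0.854 (log2 change 5.41, SE 0.57, adjusted p 0.00423). With Ncmap below 1 CPM as the limit, Ccnb2 was at 1.42 and no longer passed (adjusted p 0.593).

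The wells also differed from the other non-cycling wells in matrix and receptor genes. Of 9 genes of fibrillar collagens and matrix, 3 were higher and none lower. Col3a1, a chain of fibrillar collagen III, stood at 1498 and 1773 CPM against 321 and 262 (log2 change 2.17, SE 0.23, adjusted p 0.00435). Col1a1 was higher by 1.37 (SE 0.19, adjusted p 0.0134) and Col1a2 by 1.04 (SE 0.12, adjusted p 0.0066), both chains of collagen I. Sparc, a matrix glycoprotein and the most abundant of the list, stood at 14589 and 16063 CPM against 9518 and 9616 and did not pass (0.36, adjusted p 0.184).

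Fibroblasts make the same collagens, so their markers were read beside these values. The summed level of 6 fibroblast-like markers was 1520 and 1783 CPM in the Ncmap-negative wells, against 330 and 269 CPM, nearly all of it Col3a1. Pdgfra, Dpt and Pi16 had no read in the sums of either plate, and no well had 5 reads in 3 or more of the 6 genes. Lists for endothelial, immune, pericyte, perineurial, neuronal, muscle, melanocyte and hepatocyte transcripts were also met by 0 of the 228 wells. With 3 wells taken as the limit for a count of 0, a share of 1.32% or less meeting a list could have gone unseen. How many cells of each type this rule would catch was not tested, so the limit does not cover wells that fall short of it. For the melanocyte list the highest well had 2107 and 2746 CPM in the 2 plates, against 900 and 1672 CPM in the other non-cycling wells.

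Basal lamina genes were divided. Of 14, Lama4, a laminin chain, was higher (258 and 303 CPM against 106 and 110, adjusted p 0.0269), and Dag1, the dystroglycan receptor for laminin, was lower (162 and 183 against 355 and 406, log2 change -1.46, adjusted p 0.0142). Dag1 lost the threshold where every well weighed the same (adjusted p 0.0514). Among 10 signalling receptors, 2 were higher. Ednrb, the endothelin receptor B (chr14:103814625-103844402), stood at 3202 and 2473 CPM against 273 and 172 (3.35, SE 0.32, adjusted p 0.00294). It had reads in 99.1% and 99.2% of the wells and thus was found more widely than any of the 6 markers.

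Lpar1, the lysophosphatidic acid receptor, stood at 462 CPM in both plates against 96.9 and 73.1 (2.12, SE 0.20, adjusted p 0.00294). The neuregulin receptor genes Erbb2 and Erbb3 did not pass, with log2 changes of 0.00 (SE 0.46) and 0.22 (SE 0.20). Erbb3 was at 162 and 175 CPM against 123 and 108.

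Immediate-early genes were higher in part. Of 17, 7 were higher and none lower, namely Atf3, Egr1, Egr3, Ier2, Nr4a1, Klf6 and Zfp36, with a list median of 0.72. Nr4a1, a nuclear receptor, stood at 1242 and 1374 CPM against 357 and 353 (1.56, SE 0.17, adjusted p 0.00435). Fos, the most abundant, was at 7093 and 7153 CPM against 3369 and 3534, a log2 change of 0.72 (SE 0.19, adjusted p 0.116). Of 10 chemokine, interferon and MHC class I genes tested only Irf1, an interferon response factor, passed (343 and 344 CPM against 16.8 and 40.9, log2 change 3.26, adjusted p 0.00844).

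Genes at the entry into the cell cycle were read because the wells were defined as non-cycling by later genes. Of 16 genes of G1 and S phase, 15 had positive changes, with a median of 2.44, but only Mcm3, a helicase subunit, passed (12.3 and 24.7 CPM against 0.172 and 0.388, adjusted p 0.0226). Mcm7 was at 100 and 105 CPM against 22.2 and 13.2 (2.21, SE 0.45, adjusted p 0.0527). With the plate as a block Mcm7 passed (adjusted p 0.0284). Ccnd1, cyclin D1, stood at 856 and 892 CPM against 239 and 226 (1.59, SE 0.15, adjusted p 0.00294), while Cdkn1b, the CDK inhibitor p27, was lower (37.3 and 37.6 CPM against 159 and 99.3, adjusted p 0.0364). Mcm3, Lama4, Cdkn1b and Fa2h were named after their values were seen.

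A narrower comparison took the other non-cycling wells with Pmp22 below 25000 CPM, 70 and 63 wells that had Ncmap but not yet the Pmp22 level of the majority. Fitted in 8 sums with all groups, 124 of 13848 genes were higher in the Ncmap-negative wells (0.895%) and 107 lower (0.773%). Of the 6 markers only Ncam1 passed (516 and 473 CPM against 108 and 61.3, log2 change 2.41, SE 0.32, adjusted p 0.00782). Its call was lost with equal weight of wells (adjusted p 0.0641), with the Ncmap limit at 1 CPM (adjusted p 0.153) and with the Pmp22 limit at 15000 CPM (adjusted p 0.107). The Ncmap limit of 1 CPM adds wells of 1 to 10 CPM to the Pmp22-low wells, then 92 and 91. Entpd2 missed the threshold (4.29, SE 0.88, adjusted p 0.0527) and passed with the plate as a block (adjusted p 0.0204). Ngfr stood at 49.3 CPM in the Pmp22-low wells of plate 2 and 0.519 CPM in those of plate 1, and did not pass (adjusted p 0.873).

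Myelin transcripts differed from the Pmp22-low wells as well. Ncmap separates these groups too, so this is not independent of the choice of wells either. Of 12 genes of the list tested, 10 were lower and none higher. Mbp stood at 18087 and 17818 CPM in the Pmp22-low wells (log2 change -2.06, SE 0.09, adjusted p 4.19e-05) and Pmp2 at 453 and 783 CPM (-4.70, SE 0.30, adjusted p 2.57e-04). Of 21 cholesterol genes, 3 were lower here, Hmgcs1, Fdps and Fdft1. Fdps changed by -1.37 (SE 0.15, adjusted p 0.00256) and did not pass with the Pmp22 limit at 15000 CPM (adjusted p 0.806), and Fdft1 lost the threshold with the plate as a block (adjusted p 0.064). That the 2 comparisons differ in size was not tested.

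Named decreases also held Slc36a2 (642 and 441 CPM in the Pmp22-low wells, log2 change -3.53), Mpp6, a scaffold protein (-3.25), Cdkn1a (-3.23) and Elovl7, a fatty acid elongase (-3.15). Ednrb (2.01, adjusted p 0.0167), Lpar1 (1.62, adjusted p 0.0118), Egr1 (1.72, adjusted p 0.00414), Col3a1 (1.33, adjusted p 0.0252) and Col1a2 (0.81, adjusted p 0.0134) were higher against the Pmp22-low wells too. All 5 lost the threshold with the Ncmap limit at 1 CPM (adjusted p 0.231, 0.0768, 0.097, 0.229 and 0.114 in this order), Col3a1 also with the Pmp22 limit at 15000 CPM (adjusted p 0.0661), and Mpp6 with the former (adjusted p 0.114). Fos was higher by 0.91 (adjusted p 0.0447) and lost the threshold with the block (adjusted p 0.052). Slc43a3 was higher by 5.31 (adjusted p 0.0333) and also lost it with the block (adjusted p 0.0524). The remaining 4 of the 5 largest increases, Nuf2, Tk1, Pbk and Spc24, are genes of dividing cells. The Nuf2 and Pbk reads of the Ncmap-negative wells are those described above. All 4 genes reached the naming rule's minimum of 50 CPM only through groups outside this comparison. They had 0 to 2 reads in the Pmp22-low wells of at least 1 plate, and Tk1 lost the threshold with the block (adjusted p 0.0553).

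Cdkn1c, the CDK inhibitor p57 (chr7:143458339-143461050), and Pou3f1 mark the step before myelination and did not pass against either group. Cdkn1c stood at 1908 and 861 CPM, against 1055 and 681 in all other non-cycling wells and 3529 and 2224 in the Pmp22-low wells (adjusted p 0.87 and 0.266). Against the Pmp22-low wells the change of -1.19 passed with the plate as a block (-1.24, adjusted p 0.0238), after thinning (adjusted p 0.0133) and with no filter on low counts (adjusted p 3.27e-04). Pou3f1 stood at 112 and 156 CPM, against 113 and 96.7, and 159 and 153 (adjusted p 0.996 and 0.869). Egr2 was at 103 and 110 CPM against 246 and 167 in all other non-cycling wells (-1.28, SE 0.26, adjusted p 0.05, above the threshold before rounding), and its corepressor Nab2 was lower by -1.56 (SE 0.30, adjusted p 0.045), a call that was lost with the plate as a block (adjusted p 0.0634). Both comparisons share the Ncmap-negative wells.

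Against the cycling wells, which also lack Ncmap, 103 of 13734 genes were higher (0.75%) and 189 lower (1.38%). When only these 2 groups were fitted, 8 genes were higher and 133 lower, and with cycling defined by 1 read in 2 of the genes 10 were higher and 227 lower. None of the 6 markers passed. Ncam1 stood at 516 and 473 CPM against 444 and 586 in the cycling wells, and Entpd2 at 620 and 856 against 561 and 491. None of the 9 tested regulators of immature cells, the 17 immediate-early genes, the 10 receptors or the 9 matrix genes passed. A p above the threshold does not show that the groups are alike. The fit places the Ncam1 difference at -0.18 (SE 0.26) and the Ngfr difference at 0.17 (SE 1.15), a wide range for Ngfr.

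Cdkn1c was higher in the Ncmap-negative than in the cycling wells, at 1908 and 861 CPM against 251 and 208 (log2 change 2.47, SE 0.40, adjusted p 0.0339), a call lost with the looser definition of cycling by 1 read in 2 of the genes (adjusted p 0.306). In this comparison the median gene changed by 0.12. Of 13 myelin genes, 4 were higher, Prx, Pllp, Cldn19 and Gjb1, while Mbp (3276 and 3653 CPM in the cycling wells) and Pmp22 (2206 and 1908) did not pass. Prx, which encodes periaxin, stood at 301 and 404 CPM against 144 and 141. Gjb1, connexin 32, stood at 21.2 and 8.09 CPM against no read in the cycling wells. It was read in 9.43% and 4.92% of the Ncmap-negative wells. With only 32 and 25 cycling wells, a gene read so rarely could be missed in all of them. No minimum fold is therefore given.

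Slc36a2 was also higher than in the cycling wells, at 66.5 and 36.2 CPM against 5.28 and 4.31. Whether the increases of Slc36a2, Prx, Pllp and Cldn19 held under the alternatives was not examined. Other named increases were Atxn1, with no read in the cycling wells, H2-DMa, Mras and the histone gene Hist2h2aa2. The last is of a multicopy family whose reads may be shared among near-identical copies. Gjb1 and these 4 genes reached the naming rule's minimum through the other non-cycling wells. All 5 lost the threshold when only the 2 groups were fitted (adjusted p 0.103 for Atxn1, 0.157 for Gjb1, 0.205 for H2-DMa, 0.293 for Mras and 0.232 for Hist2h2aa2). They had negative changes under the looser definition, whose cycling class also holds Ncmap-positive wells. The 5 named decreases, Aurka, Plk1, Cdca2, Knl1 and Spc25, are mitotic genes, as the definition of the groups implies, and Spc25 lost the threshold with the plate as a block (adjusted p 0.0523). Of 16 genes of G1 and S phase, all had negative changes, and Pcna, Tyms and Slbp were lower. The definition did not use these 16, but they belong to the same cell cycle as its genes and are not independent of it. Tyms, thymidylate synthase, was at 34.3 and 36.6 CPM against 296 and 252 (-3.07, SE 0.27, adjusted p 0.00498). In the last 2 comparisons Hmgcs1, Prx, Pllp, Cldn19, Slbp and Slc36a2 against cycling wells were named after their values were seen.

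**Figure D3:**
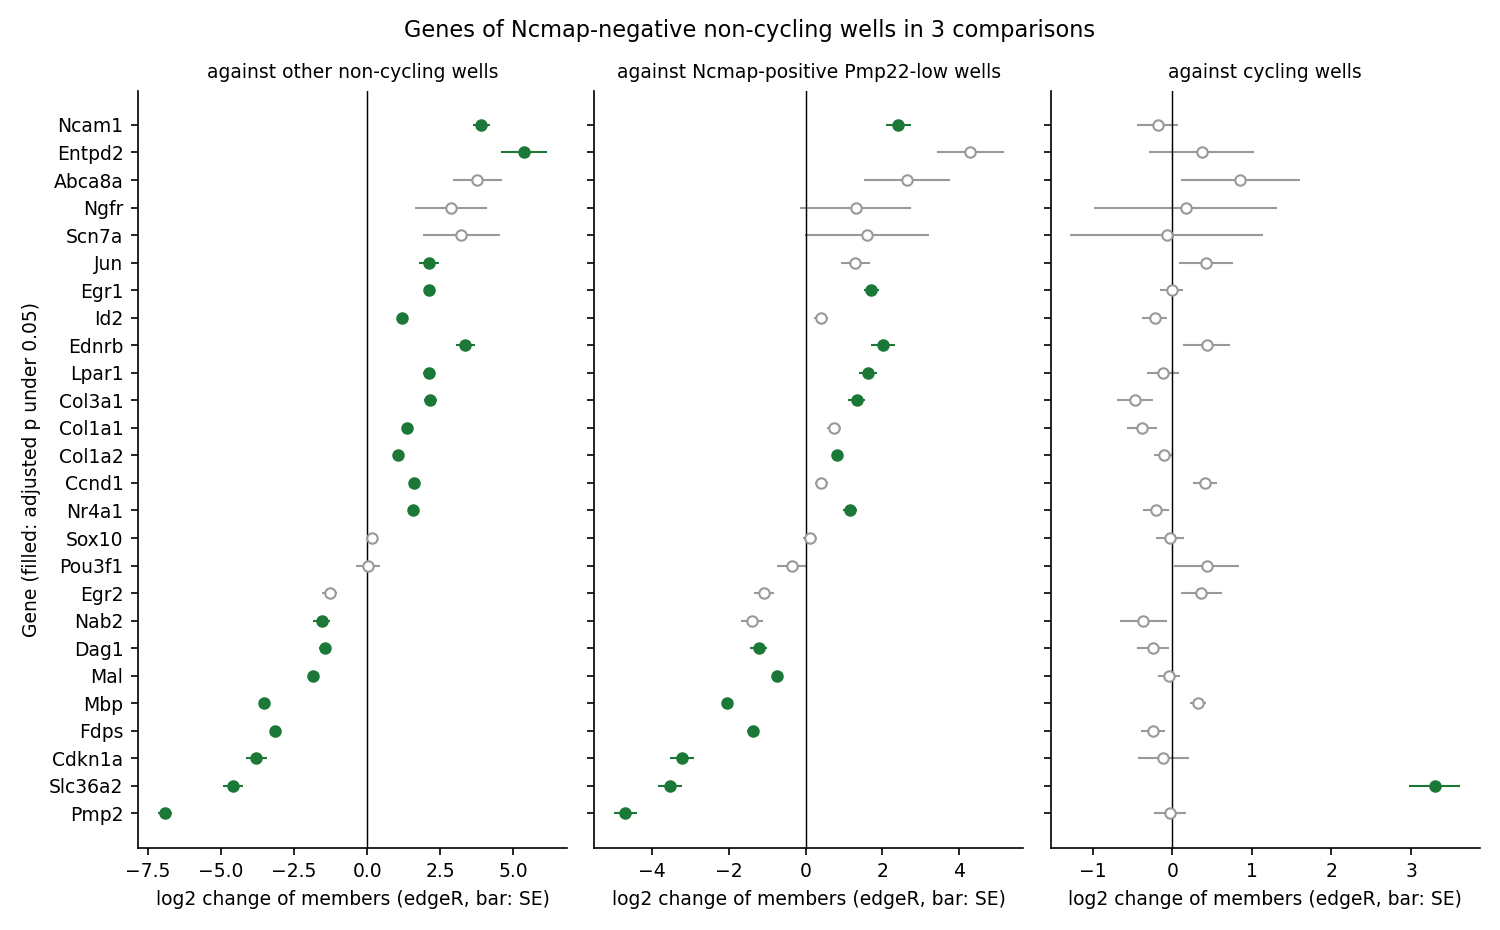
Log2 change of the Ncmap-negative wells (x axis, edgeR, bar: SE, n = 2 plates) for named genes (y axis). The wells are set against the other non-cycling wells (left), the Ncmap-positive Pmp22-low wells (middle) and the cycling wells (right, other scale). The SE comes from the test's F statistic, and filled points have an adjusted p under 0.05 (edgeR). Ncam1 and Mbp are filled in the left and middle panels and open in the right one, where Ncam1 lies at -0.18.

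The 228 wells were not uniform, and genes that the selection did not use varied together among them. Scn7a, a sodium channel-related gene of Remak cells, was read in 34.9% and 47.5% of the wells against 5.88% and 3.28% of the other non-cycling wells. Its sums of 89.4 and 161 CPM stood against 20.6 and 0.729 CPM, where 1 well held 98.3% of the reads of plate 1, and the difference did not pass (adjusted p 0.345). Without plate columns 8 and 16 the log2 change was 8.59 instead of 3.21 and Scn7a passed (adjusted p 0.00391), as it did with a minimum of 2500 genes and with a limit of 50 CPM of Ncmap. Gfra3, another Remak gene, was read in only 5 and 4 wells. Of the 5 Remak genes tested none passed, although 4 were positive, with a median of 3.21.

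Entpd2 and Scn7a tended to be high in the same wells. Across wells thinned to equal reads, Spearman's rho was 0.42 in plate 1 (104 wells) and 0.52 in plate 2 (120 wells). Of wells with a Scn7a read, 91.9% and 91.4% also had Entpd2, against 58.0% and 64.1% of wells without Scn7a. Ngfr and Entpd2 had rho of 0.30 and 0.44, and Abca8a and Entpd2 0.38 and 0.32. L1cam and Scn7a had 0.39 and 0.29. These are descriptions over cells of the same 2 pools, not tests.

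Cdkn1c and Pou3f1 went the other way. With each other they had a thinned rho of 0.50 and 0.41, and with Entpd2 Cdkn1c had -0.52 and -0.51 and Pou3f1 -0.45 and -0.47. Ngfr had -0.42 and -0.43 with Cdkn1c, and Scn7a -0.47 and -0.45 with Pou3f1. The direction was the same in both plates and with all reads, where Entpd2 and Cdkn1c had -0.50 and -0.46.

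Counted as wells, Scn7a was read in 20.3% of the 74 wells with Pou3f1 and in 68.8% of the 32 wells without it in plate 1. In plate 2 the shares were 34.5% of 87 and 80.0% of 35 wells. After thinning they were 14.8% and 60.5%, and 28.6% and 69.8%. Entpd2 was read in 59.4% of the wells with Cdkn1c and 89.2% of those without in plate 1, and in 73.3% and 86.1% in plate 2. Cdkn1c itself ranged from no read to 23812 CPM in plate 1, with a median of 14.5 CPM, and to 13744 CPM in plate 2, with a median of 207 CPM. Wells with a Cdkn1c read were somewhat deeper (median 492965 against 367981 reads in plate 1 and 466304 against 399954 in plate 2). Wells with both Entpd2 and Cdkn1c were not rare, at 41 and 63.

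**Figure D4:**
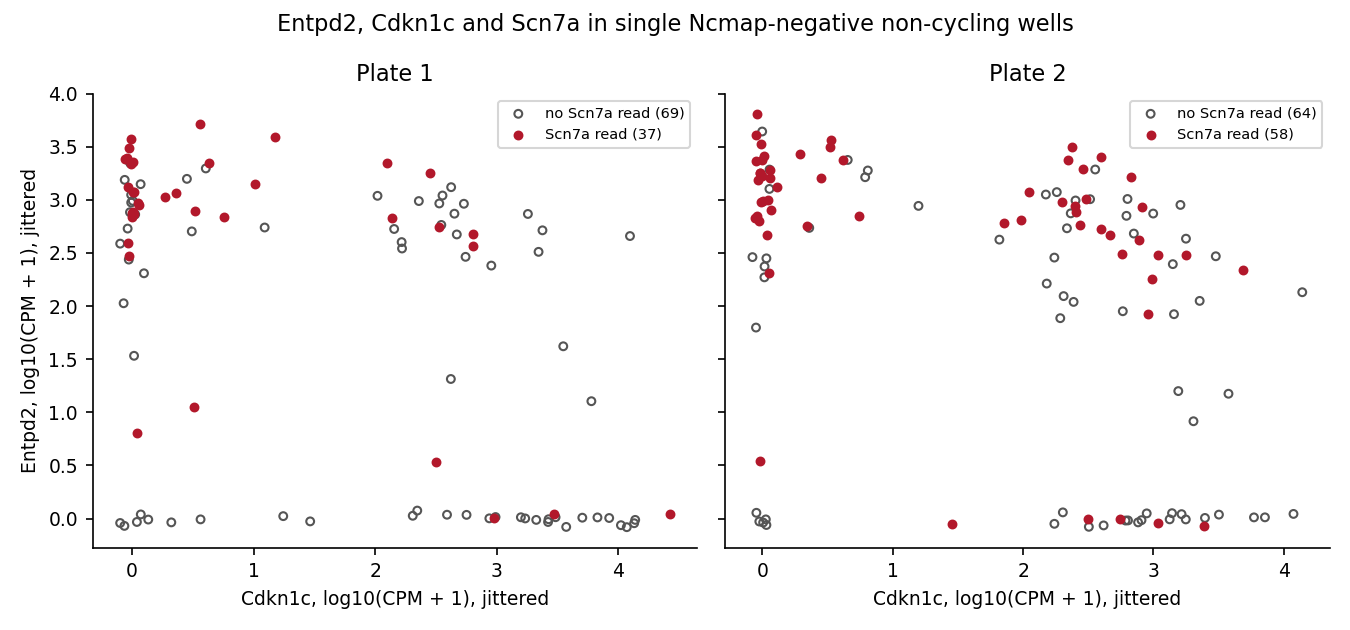
Cdkn1c (x axis) and Entpd2 (y axis) as log10(CPM + 1) in each Ncmap-negative non-cycling well, with 1 panel a plate; filled red points had a Scn7a read (37 and 58 wells), open points had none. The 4 wells with the most Cdkn1c have no Entpd2 read, but wells with 12050 and 12010 CPM of Cdkn1c have 134 and 480 CPM. Of the red points, 34 of 37 and 53 of 58 have an Entpd2 read.

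Mbp and Pmp22 rose and fell together across the wells (0.55 and 0.44) and had only weak relations to Cdkn1c (-0.15 and 0.02 for Mbp). Col3a1 had the signs of Entpd2, at 0.32 and 0.31 with Entpd2 and -0.17 and -0.18 with Cdkn1c, and Pmp22 had 0.32 and 0.15 with Entpd2. Sox2 and Jun had weak relations. The widest of Sox2 was -0.22, with Ccnd1 in plate 1, where plate 2 had 0.14, and the widest of Jun was 0.24, with Entpd2 in plate 1, where plate 2 had 0.11.

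**Figure D5:**
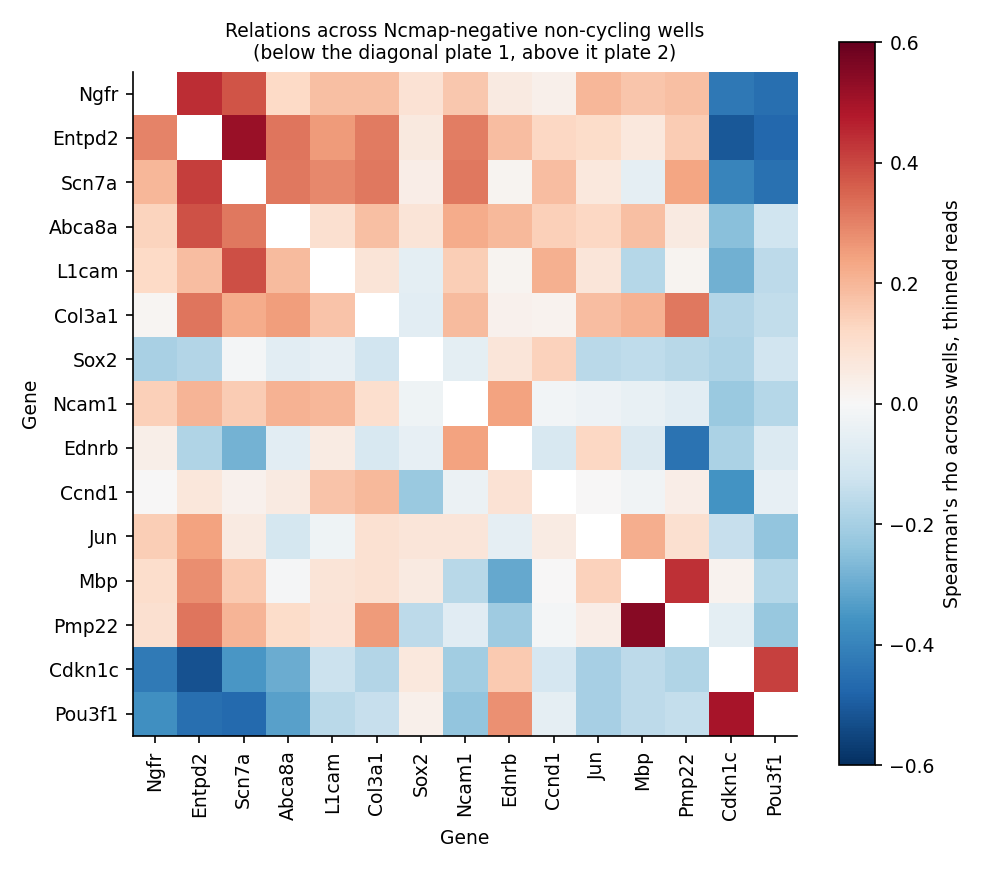
Spearman's rho (colour) between pairs of 15 genes (both axes) across the Ncmap-negative non-cycling wells thinned to 50000 reads, plate 1 (104 wells) below the diagonal and plate 2 (120 wells) above it. Cdkn1c and Pou3f1 are positive with each other (0.50 and 0.41) and negative with Ngfr, Entpd2 and Scn7a in both plates.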

How the data were processed

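The deposited files hold raw read counts per gene and well, which the authors made by aligning reads with STAR and counting with featureCounts, and per the labels' processing notes with STAR 2.6.1c on GRCm38.p5. The study's methods name a human build instead. Without molecular identifiers a count is a read and not a molecule. Gene symbols, overlaps and coordinates were taken from GENCODE vM21 (GRCm38), in which 25664 of 25700 identifiers matched and 36 did not.

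Wells were classed by the stated rule and their counts summed per plate and class. The sums held 53948232 and 59939925 reads for the Ncmap-negative wells. Sums were tested with edgeR 4.0.16 in R 4.3.3 (TMM scaling, quasi-likelihood test, Benjamini-Hochberg adjustment over all genes tested), without the gate genes and genes overlapping them (14 left out). Samples were grouped by plate, with no block for the plate. The dispersion was 0.653 over 6 sums with 3 residual degrees of freedom, and 0.717 over 8 sums with 4. Thinned wells were drawn to 50000 reads. The scripts were run on simulated data with a lower dispersion than these sums and no plate effect. That run checks the code and not how the tests perform on these data. Same-plate sums deviated together with correlations of 0.01 to 0.09 over 3588 genes, and the plates pair the sums because both classes come from the same pooled animals. Named genes were the 6 markers, the called genes with the largest changes (10 a direction in the first comparison and 5 in the others, with a mean of at least 50 CPM over all sums of the fit, including groups outside the comparison, the same direction in both plates and no provisional symbol), the 4 members of each list with the highest mean CPM, and list members called against the direction of their list. The members and lists were chosen with earlier results of these data known. Alternatives included DESeq2 1.42.0, limma 3.58.1, other limits and scalings, the plate block and each plate left out. Results that need a withheld item are not reported here.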

Additional observations from a re-analysis of the deposited data

How the results depend on the processing

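Of the genes that the naming rule gave and that are reported here, 30 of 41 called against the other non-cycling wells kept their call under every alternative fit. Against the Pmp22-low wells 5 of 23 did so, and 2 of 14 against the cycling wells. Leaving a plate out gave a log2 ratio without a p and is not among these fits. A fit that did not hold a gene was passed over for that gene. Genes called numbered 454, 231 and 292 in these 3 comparisons. With the plate as a replicate block they were 396, 224 and 214, of which 372, 191 and 197 were shared. DESeq2 called 1256, 913 and 1617, no filter on low counts 731, 657 and 633, equal weight of wells (limma) 758, 428 and 608, and thinning 751, 489 and 504. Equal weight raised the share of higher calls from 52.6% to 63.9%, 53.7% to 65.9% and 35.3% to 48.8%. Fitting only the 2 groups compared gave 1009 in the first comparison and 141 in the third, of which 8 were higher (5.67% against 35.3%). A limit of 1 CPM of Ncmap gave 262 and 63 in the first 2, and a looser definition of cycling 877 and 423. The limit of 1 CPM moves wells of 1 to 10 CPM into the groups compared with and does not leave them out. The share of wells was 27.2% with the limit of 1 CPM and 28.8% with looser cycling, and 32.6% to 37.0% with a plate left out.

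Some directions reversed. With the limit of 1 CPM, Nuf2 was at -9.66 against the other non-cycling wells and -10.54 against the Pmp22-low wells. Both of these groups then hold the wells of 1 to 10 CPM. Under looser cycling, whose class holds Ncmap-positive wells, the changes against cycling wells were -2.02 for Atxn1, -2.14 for Gjb1, -2.55 for H2-DMa, -2.10 for Mras, -1.49 for Hist2h2aa2, -2.24 for Mbp, -3.26 for Pmp22 and -1.31 for Msmo1. For the other changes the cause was not tested. With 2 plates, genes read in few wells rest on those wells.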
